A study of Mus musculus with 6 samples.

Results

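Liver transcripts of the kind induced by PPARα, the nuclear receptor for fatty acids, were followed after an injection of FGF15 or FGF19. The genes asked for were Cyp4a10, Cyp4a14, Acot1, Acot2, Acot3, Acot4, Vnn1, Cd36, Angptl4 and Pdk4, and every probe set that the platform annotation pairs with exactly 1 of these 10 genes was taken. This gave 13 probe sets for 9 genes, out of 22690 probe sets on the array and 12393 genes that have 1 or more to themselves. Cyp4a10 had none of its own and is given no value. Of the 13, 2 end in _s_at (those of Acot3, 1422925_s_at, and Angptl4, 1417130_s_at), which can also bind related transcripts, and 0 end in _x_at. The genes were chosen by name and not by their values, but with earlier results of these data known.

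Whole-liver RNA came from wild-type male C57Bl/6 mice and was labelled with biotin for the Affymetrix Mouse Genome 430A 2.0 array. The mice had received vehicle, purified FGF15 (the mouse hormone) or recombinant FGF19 (its human orthologue) by jugular vein injection. Livers were taken 6 h later, and all groups had been without food over that time. Each group has 2 arrays, 6 in all, and no label says whether both arrays of a group stem from different mice. The p-values thus rest on array-to-array spread alone, part of which may be technical. Neither the doses, the age of the mice nor the composition of the vehicle is given in the sources used here.

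PPARα pairs with the receptor RXR on DNA elements in which the sequence AGGTCA is repeated, and it is the main switch by which the liver raises fatty acid use during fasting. Its classical targets in mouse liver include the Cyp4a enzymes, which hydroxylate fatty acids at the omega end, the Acot thioesterases, which release free fatty acids from acyl-CoA, and the pantetheinase Vnn1. Angptl4, a secreted inhibitor of lipoprotein lipase, and Pdk4, a kinase that shuts off pyruvate dehydrogenase, respond to PPARα but also to glucocorticoids and to FOXO transcription factors. Cd36, a fatty acid transporter at the cell surface, is likewise a target of several nuclear receptors and is expressed outside hepatocytes too.

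Stretches before the start sites of some members are shown. The reasons are that Acot2, Acot1, Acot4 and Acot3 follow each other on chromosome 12 and that Pdk4 had a pattern of its own. Acot2 was too dim to be tested, and its stretch is not printed. The sequences are from RefSeq (GRCm38.p6), whose promoter table held 6 of the 10 genes; Cyp4a10, Cyp4a14, Vnn1 and Angptl4 were not matched. Both strands of the 250 bases before each start were searched for the single repeat AGGTCA and, allowing 2 mismatches, for the PPAR response element. That element is AGGTCA, any 1 base, and AGGTCA again. Without mismatches it contains the single repeat, but a match with mismatches need not. The single repeat was found in 14% of the 32851 windows of this length in the table. The element was found in 3.24% with up to 2 mismatches and in 0.0335% without any. Acot4 and Cd36 each held both, the element with 2 mismatches in either gene, while Acot1, Acot2, Acot3 and Pdk4 held neither in this window. The Acot4 and Cd36 windows overlap the annotated span of their gene at least in part, as does that of the second Acot3 start. The other windows lie wholly outside it. In Acot4 the single repeat is part of the element, which covers the last 13 bases before the start. In Cd36 the element lies 63 to 51 bases before the start and the single repeat 228 to 223 bases before it. Capitals mark the element in these 30-base windows, which run from chr12:84038349-84038378 on the plus strand for Acot4 and chr5:17835938-17835967 on the minus strand for Cd36.
Acot4: ggctcagccccgaagcaTGACCTTTGGCCG
Cd36: tggttctcTGGCCTCTGACTTacttggatg
The 250 bases before the starts of Acot1 (chr12:84009252-84009501, plus strand), Acot3 (chr12:84051894-84052143, plus strand, the first of 2 starts that lie 7 bases apart) and Pdk4 (chr6:5496279-5496528, minus strand) carry no match and so no capitals.
Acot1: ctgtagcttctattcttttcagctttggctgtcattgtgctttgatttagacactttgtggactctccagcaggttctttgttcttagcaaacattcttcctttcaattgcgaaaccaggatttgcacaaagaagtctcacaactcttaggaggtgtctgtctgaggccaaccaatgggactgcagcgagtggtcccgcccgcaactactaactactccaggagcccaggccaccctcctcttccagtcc
Acot3: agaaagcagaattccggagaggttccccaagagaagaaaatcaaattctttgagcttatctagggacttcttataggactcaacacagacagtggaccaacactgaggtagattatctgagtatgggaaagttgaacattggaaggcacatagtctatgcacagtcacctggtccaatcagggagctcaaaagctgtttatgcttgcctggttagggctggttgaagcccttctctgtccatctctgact
Pdk4: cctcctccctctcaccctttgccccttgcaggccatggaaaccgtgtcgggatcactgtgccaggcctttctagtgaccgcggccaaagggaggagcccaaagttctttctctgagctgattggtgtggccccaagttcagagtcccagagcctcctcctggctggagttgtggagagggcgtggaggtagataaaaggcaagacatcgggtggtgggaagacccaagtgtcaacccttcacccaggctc

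Signals are on a linear scale, already scaled to one trimmed mean per array, and median signals lay between 50.8 and 61.4. FGF19 replicate 1 stood apart in its control probe sets. The ratio of 3' to 5' signal, which rises as RNA degrades, was 1.63 there for β-actin against 1.30 to 1.39 on the other 5 arrays, and 3.38 for pyruvate carboxylase against 2.27 to 2.73. The FGF19 changes of the members called against vehicle are therefore also given without that array, and of the genes named from other lists below those whose FGF19 call ended without it are pointed out. The 9 measured hepatocyte markers had a summed signal of 79600 to 80070 with vehicle, 67360 to 73550 with FGF15 and 60810 to 74960 with FGF19, lower with either hormone and without overlap. Of the 9, 1 was called lower with FGF15 and 0 with FGF19, and both counts were larger when either FGF19 array was left out. With FGF19, 3 were lower under cyclic loess and 0 under quantile normalization or median centring, and 1 was higher under each. The part of these markers in the results was not tested. Muscle markers summed to at most 142.8, with Acta1 and Myh7 under a signal of 14.0 on every array.

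With FGF15, 6 of the 9 genes rose, Angptl4 fell, Pdk4 did not pass and Acot2 was too dim to be tested. With FGF19, 7 rose, 0 fell, Angptl4 did not pass and Acot2 was again not tested. A gene with several probe sets is counted by its brightest. In probe sets, 11 of 13 passed the filter on low signals (a mean over all arrays of about 14.0 or more). Of these, 9 were higher and 1 lower with FGF15, and 10 were higher and 0 lower with FGF19, at an adjusted p under 0.05 in limma. Over all 16969 probe sets tested, 4.73% were called higher and 5.81% lower with FGF15, and 5.15% higher and 6.34% lower with FGF19. Groups that did not overlap were counted too. Against vehicle, 9 of the 11 were above it on every array and 1 below with FGF15, where 21.2% and 32.9% of all probe sets tested were, and 10 above and 0 below with FGF19, where 20.3% and 36.9% were. The median log2 change of the 11 was 1.18 with FGF15 and 0.79 with FGF19, beside -0.05 and -0.07 over all probe sets tested. The comparisons with vehicle share the vehicle arrays, so they are not independent of each other. Centring each array on its median raises every log2 change by 0.12 with FGF15 and 0.15 with FGF19, and the share of all calls that are higher then goes from 44.9% to 72.1% and from 44.8% to 78.2%. The 6 genes that rose with FGF15 were 6 without any 1 array, whereas the 7 that rose with FGF19 were 5 without FGF19 replicate 1, FGF19 replicate 2 or vehicle replicate 1, and 6 without vehicle replicate 2.

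**Figure D1:**
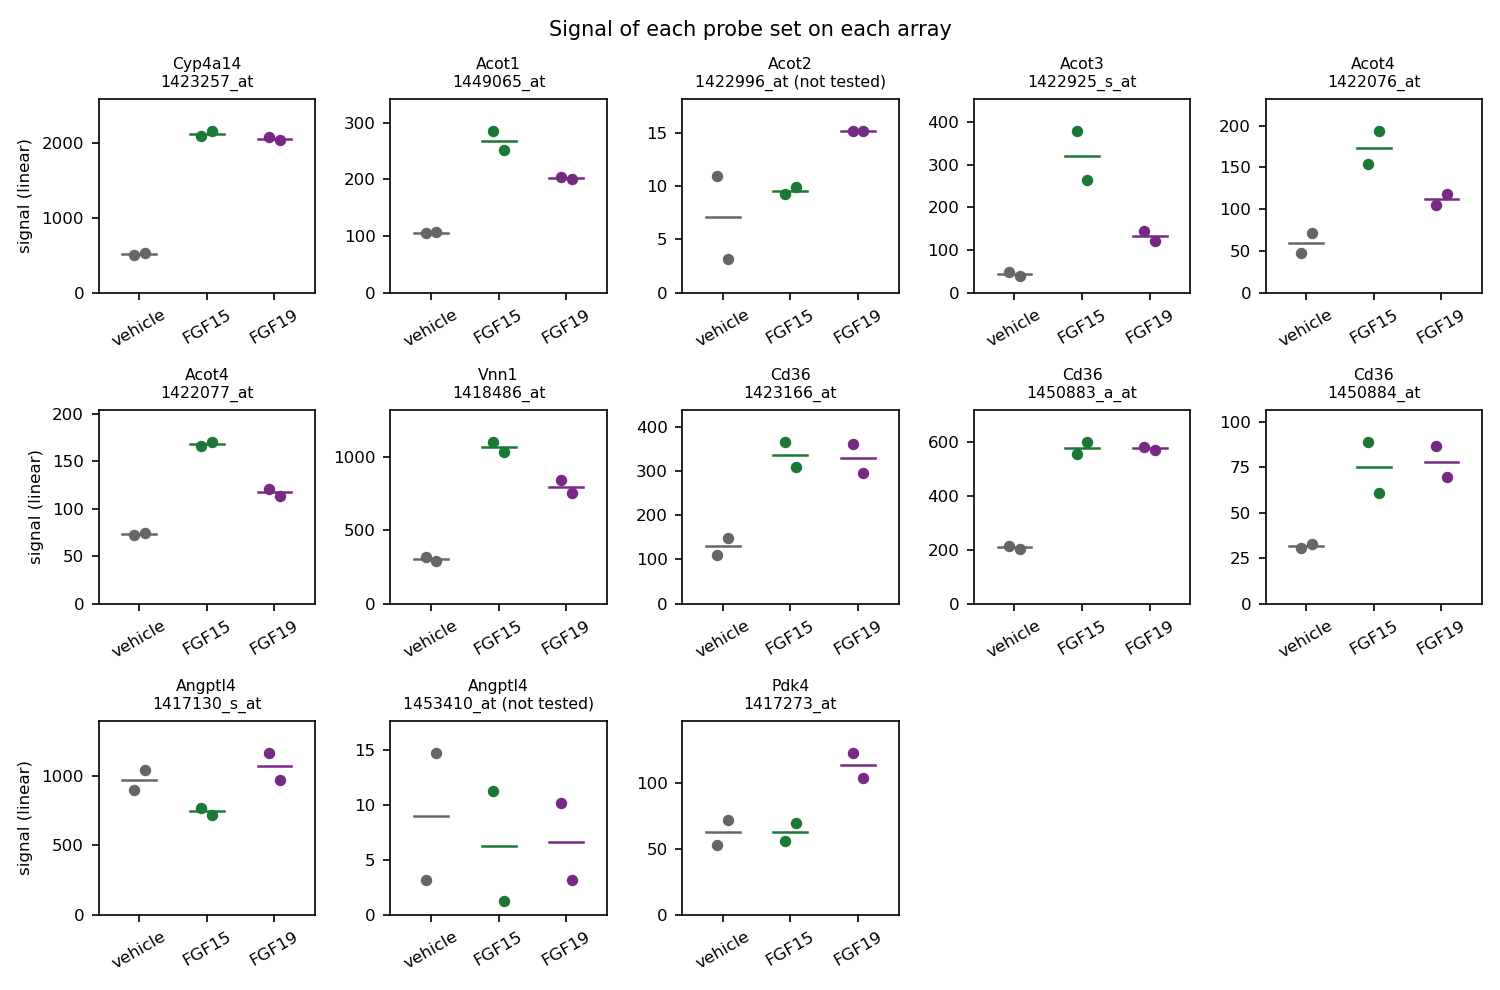
Linear signal (vertical axis, from 0) of each of the 13 probe sets on each array; points are arrays, bars are means of the 2 arrays of a group. Cyp4a14 and Cd36 reach like levels with both hormones, Acot1, Acot3, Acot4 and Vnn1 are higher with FGF15 than with FGF19, and Pdk4 is high with FGF19 only; Acot2 and Angptl4 1453410_at stay at a signal of 15.1 or less.

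Cyp4a14 (1423257_at), a fatty acid omega-hydroxylase, was among the most raised transcripts with either hormone. It read 504 and 535 with vehicle, 2092 and 2159.9 with FGF15, and 2079 and 2036 with FGF19. All hormone arrays lay far above both vehicle arrays, and the arrays within a group differed little. The log2 change was 1.97 ± 0.07 with FGF15 (SE, n = 2 arrays a group, adjusted p = 3.1e-07), a 3.92-fold rise that ranks 4 of 16969 by size. With FGF19 it was 1.92 ± 0.07 (adjusted p = 2.2e-07), or 3.79-fold and rank 6, and 1.91 without FGF19 replicate 1.

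Among the acyl-CoA thioesterases, 3 of the 4 members were measured above the filter, and these 3 rose with both hormones. Acot1, the cytosolic enzyme, read 105 and 107 with vehicle, 285 and 252 with FGF15, and 205 and 200.1 with FGF19, so the groups formed 3 separate steps. Its log2 change was 1.12 ± 0.10 with FGF15 (adjusted p = 0.00011) and 0.76 ± 0.10 with FGF19 (adjusted p = 0.0011), and 0.75 without FGF19 replicate 1. Acot3, a peroxisomal enzyme read by an _s_at probe set, went from 48.3 and 38.1 with vehicle to 379 and 265 with FGF15 and to 144 and 122 with FGF19. The FGF15 arrays were the highest and the groups again did not overlap. This was the second largest log2 rise of all probe sets with FGF15, 2.22 ± 0.16 (adjusted p = 2.8e-05), against 1.13 ± 0.16 with FGF19 (adjusted p = 0.0019), and 1.04 without FGF19 replicate 1. Because the vehicle signals are low against the 32 added before log2, these values understate the ratio of mean signals, which was 7.44 with FGF15 and 3.08 with FGF19.

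Acot4, a peroxisomal thioesterase for shorter dicarboxylic acyl-CoAs, had 2 probe sets that ran in parallel. On 1422077_at, the brighter, it read 72.1 and 74.0 with vehicle, 166 and 170.3 with FGF15, and 121 and 114 with FGF19. On 1422076_at it read 47.6 and 71.1, then 154 and 193, then 105 and 118. On either probe set every FGF15 array was above every FGF19 array, and these were above vehicle. The log2 rise with FGF15 was 0.93 ± 0.11 (adjusted p = 0.00059) and 1.18 ± 0.16 (adjusted p = 0.0012). With FGF19 it was 0.51 ± 0.11 (adjusted p = 0.016) and 0.66 ± 0.16 (adjusted p = 0.024). The FGF19 call on 1422077_at ended without any 1 of the vehicle or FGF19 arrays, at adjusted p = 0.0856 and 0.0688 without vehicle replicates 1 and 2, and 0.0957 and 0.0536 without FGF19 replicates 1 and 2. The log2 change without FGF19 replicate 1 was 0.47 on 1422077_at and 0.73 on 1422076_at. On the latter the call ended without vehicle replicate 1 (0.153), FGF19 replicate 1 (0.0767) or FGF19 replicate 2 (0.125). Acot2, the mitochondrial enzyme, stayed at 10.9 and 3.13 with vehicle, 9.21 and 9.90 with FGF15, and 15.1 and 15.1 with FGF19, near or under the filter, and was not tested.

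Vnn1 (1418486_at) is anchored at the cell surface, where it splits pantetheine. It read 316 and 291 with vehicle, 1103 and 1035 with FGF15, and 842 and 753 with FGF19. As with Acot1, the 3 groups were separate, with FGF15 on top. The log2 change was 1.72 ± 0.08 with FGF15 (3.29-fold, adjusted p = 2.4e-06) and 1.31 ± 0.08 with FGF19 (2.47-fold, adjusted p = 1.1e-05), and 1.23 without FGF19 replicate 1.

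Cd36 was read by 3 probe sets, and on each of them it rose with both hormones to overlapping levels. On 1450883_a_at, the brightest, the signal was 215 and 204 with vehicle, 554 and 599.7 with FGF15, and 583 and 572 with FGF19. On 1423166_at it was 111 and 149, then 366 and 309, then 362 and 296. On 1450884_at, the dimmest, it was 30.7 and 32.6, then 88.7 and 60.9, then 86.4 and 69.7. On every probe set both hormone groups lay above vehicle. The log2 rise on the brightest was 1.33 ± 0.08 with FGF15 (adjusted p = 8.0e-06) and 1.33 ± 0.08 with FGF19 (adjusted p = 7.1e-06), and 1.32 without FGF19 replicate 1. It was 1.19 and 1.16 on 1423166_at, and 1.03 with FGF19 without FGF19 replicate 1. On 1450884_at it was 0.73 (adjusted p = 0.021) and 0.79 (adjusted p = 0.015), and 0.68 with FGF19 without FGF19 replicate 1. The FGF15 call there was lost when vehicle replicate 1 (0.105), vehicle replicate 2 (0.0816) or FGF15 replicate 1 (0.115) was left out, and the FGF19 call without vehicle replicate 1 (0.0835), vehicle replicate 2 (0.0652) or FGF19 replicate 1 (0.114).

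Whole liver also holds macrophages and endothelial cells, and a sample may carry some fat cells, all of which can express Cd36. In such samples fewer cells of a type and less RNA per cell cannot be told apart. Of 13 measured Kupffer cell and macrophage markers, 11 were lower and 0 higher with each hormone, and their summed signal went from 7127 to 7181 with vehicle to 4037 to 4103 with FGF15 and 3900 to 3969 with FGF19. Endothelial markers summed to 3079 to 3091, 2689 to 2830 and 2756 to 2769, with 2 of 14 lower with FGF15 (1 without either vehicle array) and 0 called with FGF19. Adipocyte markers summed to 425.1 to 475.3, 324.3 to 391.9 and 448.3 to 481.0, with 7 of 9 on the array, and Lep under a signal of 14.0 on every array. Of the 3 that passed the filter, 1 was called lower with each hormone. With FGF19 that call was lost without any of the vehicle or FGF19 arrays and under all 3 other scalings, and with FGF15 without vehicle replicate 2 or FGF15 replicate 2. Platelet and red cell markers, with 6 of 7 on the array, summed to 783.7 to 909.3, 964.9 to 967.8 and 978.1 to 1127. These were higher with either hormone, without overlap. Of the 4 that passed the filter, 0 were called with FGF15, and 1 was higher and 1 lower with FGF19. That lower call was lost under all 3 other scalings. The part of these cell types in the Cd36 values was not tested.

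Angptl4 and Pdk4 did not follow the other members. Angptl4 (1417130_s_at) read 899 and 1041 with vehicle, 765 and 721 with FGF15, and 1163 and 972 with FGF19. The FGF15 arrays lay below all others, and FGF19 overlapped vehicle. The log2 change was -0.37 ± 0.10 with FGF15 (adjusted p = 0.044) and 0.13 ± 0.10 with FGF19 (adjusted p = 0.44, 95% interval -0.09 to 0.35), and 0.01 without FGF19 replicate 1. The fall with FGF15 lost its call without the first (0.0643) or the second vehicle array (0.254) and without the first (0.0951) or the second FGF15 array (0.192). It was also lost with arrays centred on their medians (0.166), with no filter (0.090), without the intensity trend (0.156), and with the replicate number as a block (0.0507). A further Angptl4 probe set, 1453410_at, read 1.25 to 14.7 over all arrays and was not tested.

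Pdk4 (1417273_at) read 53.2 and 71.9 with vehicle, 56.2 and 69.4 with FGF15, and 123 and 104 with FGF19. Vehicle and FGF15 overlapped entirely, and both FGF19 arrays were above all the others. The log2 change was 0.01 ± 0.15 with FGF15 (adjusted p = 0.99, 95% interval -0.33 to 0.35) and 0.63 ± 0.15 with FGF19 (adjusted p = 0.027). The FGF19 rise lost its call without vehicle replicate 1 (0.171), FGF19 replicate 1 (0.17, with a log2 change of 0.53) or FGF19 replicate 2 (0.0634), with no filter (0.0723) and without the intensity trend (0.0593). By ratio of mean signals, which the added 32 does not damp, Pdk4 was 1.81 times vehicle with FGF19.

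**Figure D2:**
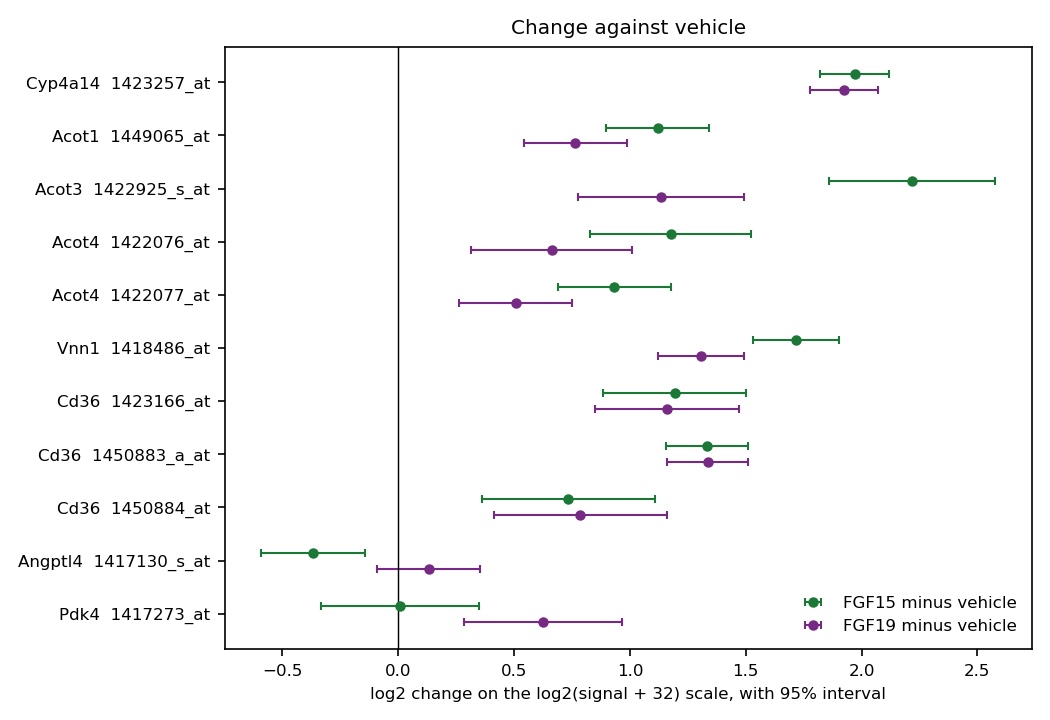
Log2 change against vehicle on the log2(signal + 32) scale (horizontal axis) for the 11 tested probe sets (vertical axis), green for FGF15 and purple for FGF19, with limma's 95% intervals as bars. Cyp4a14 and the 3 Cd36 probe sets overlap almost fully between hormones, at 1.97 and 1.92 for Cyp4a14, whereas Acot3 stands at 2.22 with FGF15 and 1.13 with FGF19.

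The hormones were then set against each other directly. Of the 11 probe sets, 1 was higher and 2 were lower with FGF19 than with FGF15, where 1.97% and 1.34% of all probe sets tested were (3.31% in either direction). The hormone groups did not overlap for 8 of them, 2 higher and 6 lower with FGF19, beside 19.9% and 24.8% of all probe sets. Acot3 was lower by a log2 difference of -1.08 ± 0.16 (adjusted p = 0.0048). Vnn1 was lower at -0.41 ± 0.08 (adjusted p = 0.024), and Angptl4 was higher at 0.50 ± 0.10 (adjusted p = 0.023). The Acot3 difference kept its call without any 1 array (adjusted p of at most 0.0448) and lost it only without the intensity trend (0.0552). That of Vnn1 ended without FGF15 replicate 1 (0.162), FGF15 replicate 2 (0.0696) or FGF19 replicate 2 (0.126), and that of Angptl4 without FGF15 replicate 1 (0.0846), FGF15 replicate 2 (0.125) or FGF19 replicate 1 (0.146). With no filter and without the intensity trend the adjusted p was 0.0528 and 0.167 for Vnn1, and 0.0717 and 0.167 for Angptl4.

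Other differences had intervals that excluded 0 but did not pass after adjustment. Acot1 was at -0.36 (95% interval -0.58 to -0.13, adjusted p = 0.097), and Acot4 at -0.42 (-0.67 to -0.18, adjusted p = 0.074) and -0.51 (-0.86 to -0.17, adjusted p = 0.13). Pdk4 was at 0.62 (0.28 to 0.96, adjusted p = 0.063). For Pdk4, centring on medians (0.0496) or the stricter filter on low signals (0.0461) brought the difference past the threshold. For Cyp4a14 the difference was -0.05 (-0.19 to 0.10, adjusted p = 0.80). For the brightest Cd36 probe set it was 0.00 (-0.17 to 0.18, adjusted p = 0.99). An interval around 0 does not show that the hormones act alike on these genes.

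**Figure D3:**
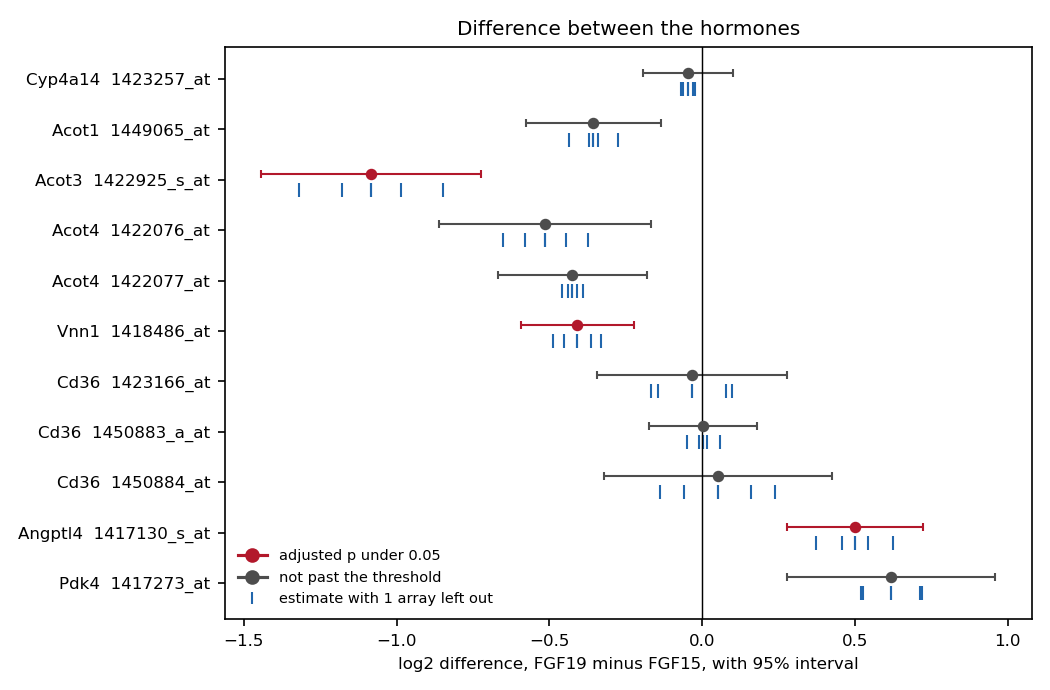
Log2 difference between FGF19 and FGF15 (horizontal axis, 95% intervals as bars) for the 11 tested probe sets; red marks an adjusted p under 0.05, and blue ticks are the estimates with each array left out in turn. Acot3 (-1.08) and Vnn1 (-0.41) lie below 0 and Angptl4 (0.50) above it, with Cyp4a14 and Cd36 near 0.

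Ppara, the receptor's own transcript, singled out after its values were seen, had mean signals of 756.2 with vehicle, 847.7 with FGF15 and 642.3 with FGF19, at log2 changes of 0.15 ± 0.10 (adjusted p = 0.38) and -0.23 ± 0.10 (adjusted p = 0.17). Of 13 tested PPAR receptors and cofactors, 0 rose and 2 fell with each hormone, but 1 rose with FGF19 under quantile normalization, median centring and cyclic loess. Those that fell are the coactivators Ppargc1a, by 1.90 and 0.61 on the log2 scale, and Ppargc1b, by 0.99 and 1.19. With FGF19 the 2 became 1 without either vehicle array or FGF19 replicate 1, as the call of Ppargc1a ended (adjusted p = 0.0834, 0.0646 and 0.0853).

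Of 19 peroxisomal genes, 6 rose and 0 fell with each hormone, and the median log2 changes were 0.20 with FGF15 and 0.18 with FGF19; without FGF19 replicate 2, 2 fell with FGF19. Ehhadh, the bifunctional enzyme of peroxisomal β-oxidation, rose by 0.58 ± 0.06 and 0.60 ± 0.06, and Hacl1, of alpha-oxidation, rose with FGF15 alone among the comparisons with vehicle (0.55 ± 0.06, and -0.02 ± 0.06 with FGF19) and was lower with FGF19 than FGF15 (-0.57, adjusted p = 0.00098). Of 20 mitochondrial oxidation and ketogenesis genes, 10 rose and 0 fell with each hormone (medians 0.29 and 0.26), among them Bdh1 of ketone body synthesis (0.59 and 0.62) and the acyl-CoA dehydrogenase Acadl (0.47 and 0.49). Those 10 were 5 or 6 with FGF15 without a vehicle array or FGF15 replicate 2, and 3 with FGF19 without either vehicle array.

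Among 10 other omega-oxidation genes, 2 rose and 1 fell with FGF15, and 2 rose and 2 fell with FGF19. The rises were 1 without either vehicle array, and with FGF15 also without FGF15 replicate 2, and with FGF19 the falls were 3 without vehicle replicate 1. Aldh3a2, the fatty aldehyde dehydrogenase of that pathway, rose by 0.98 ± 0.08 and 0.87 ± 0.08. Cyp4a31, a near relative of the Cyp4a members, fell on 1424943_at, from 131 and 142 with vehicle to 33.4 and 32.4 with FGF15 and 22.0 and 27.9 with FGF19. That is a log2 change of -1.38 ± 0.14 and -1.56 ± 0.14 (adjusted p = 0.00031 and 0.00012). It rests on 1 dim probe set, and a brighter one shared between related genes, whose signal went the other way, is given apart with no gene named. Of 8 tested thioesterases outside the member list, 0 rose and 1 fell with FGF15 and 1 rose and 0 fell with FGF19, with medians of 0.00 and -0.01. The rise with FGF19 was 0 without any 1 vehicle or FGF19 array. The fall of Acot12 (-0.26 ± 0.07) has adjusted p = 0.047 and was not called whichever array was left out.

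Of 7 tested family relatives of the members, 3 rose and 1 fell with FGF15 and 2 rose and 2 fell with FGF19. The rises with FGF15 became 0 when vehicle replicate 1 was left out, 2 when vehicle replicate 2 was and 1 when FGF15 replicate 2 was. With FGF19 the rises were 1 without any 1 vehicle or FGF19 array, and the falls were 0 without either vehicle array, 1 without either FGF19 array and 0 with median centring. Vnn3, the neighbour of Vnn1 on chromosome 10, rose by 0.51 ± 0.12 (adjusted p = 0.029) and 0.74 ± 0.12 (adjusted p = 0.0047); its FGF15 call was lost when the first (0.135) or the second vehicle array (0.115) or FGF15 replicate 2 (0.149) was left out. Scarb1, of the same scavenger receptor class as Cd36, fell by 0.56 and 0.30, the latter not called without vehicle replicate 1 (0.133), vehicle replicate 2 (0.170) or FGF19 replicate 2 (0.139). Of 16 genes of fatty acid uptake, binding and activation, 2 rose with each hormone while 4 fell with FGF15 and 1 with FGF19; the falls became 2 with FGF15 when FGF15 replicate 2 was left out, and 3 with FGF19 when FGF19 replicate 2 was. The intracellular fatty acid binding proteins parted, with Fabp2 up by 1.47 ± 0.09 and 1.43 ± 0.09 and Fabp5 at -1.57 ± 0.07 and -1.15 ± 0.07.

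Of 22 other reported PPARα targets, 5 rose with FGF15 and 7 with FGF19, and 0 fell, but with FGF19 4 fell when FGF19 replicate 2 was left out and 2 under cyclic loess. Me1, malic enzyme, rose by 0.97 ± 0.08 and 1.09 ± 0.08, and Retsat, a retinol saturase, by 0.96 and 0.82. With FGF15 the 5 became 2 when vehicle replicate 1 was left out, and 3 when vehicle replicate 2 or either FGF15 array was. Of 13 lipid droplet and PPARγ-type genes, 3 rose and 4 fell with FGF15, and 3 rose and 2 fell with FGF19. The falls with FGF15 were 2 without either vehicle array or FGF15 replicate 2. With FGF19 they were 0 without either vehicle array or with median centring, and 1 without FGF19 replicate 1. Plin2, which coats lipid droplets, rose by 0.96 and 1.13. G0s2, an inhibitor of fat breakdown, read 614 and 591 with vehicle, 1172 and 1223 with FGF15 and 461 and 465 with FGF19, so it rose with FGF15 (0.95 ± 0.07) and fell with FGF19 (-0.36 ± 0.07); the fall was not called without vehicle replicate 1 (0.0902) or vehicle replicate 2 (0.0517). The lists of peroxisomal, mitochondrial, lipid droplet and other PPARα targets kept positive medians under quantile normalization, centring on medians and cyclic loess. The lists of omega-oxidation, of fatty acid uptake, binding and activation, and of family relatives had positive medians under these scalings too. With centring on medians, the median over all probe sets tested was itself 0.067 with FGF15 and 0.072 with FGF19.

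**Figure D4:**
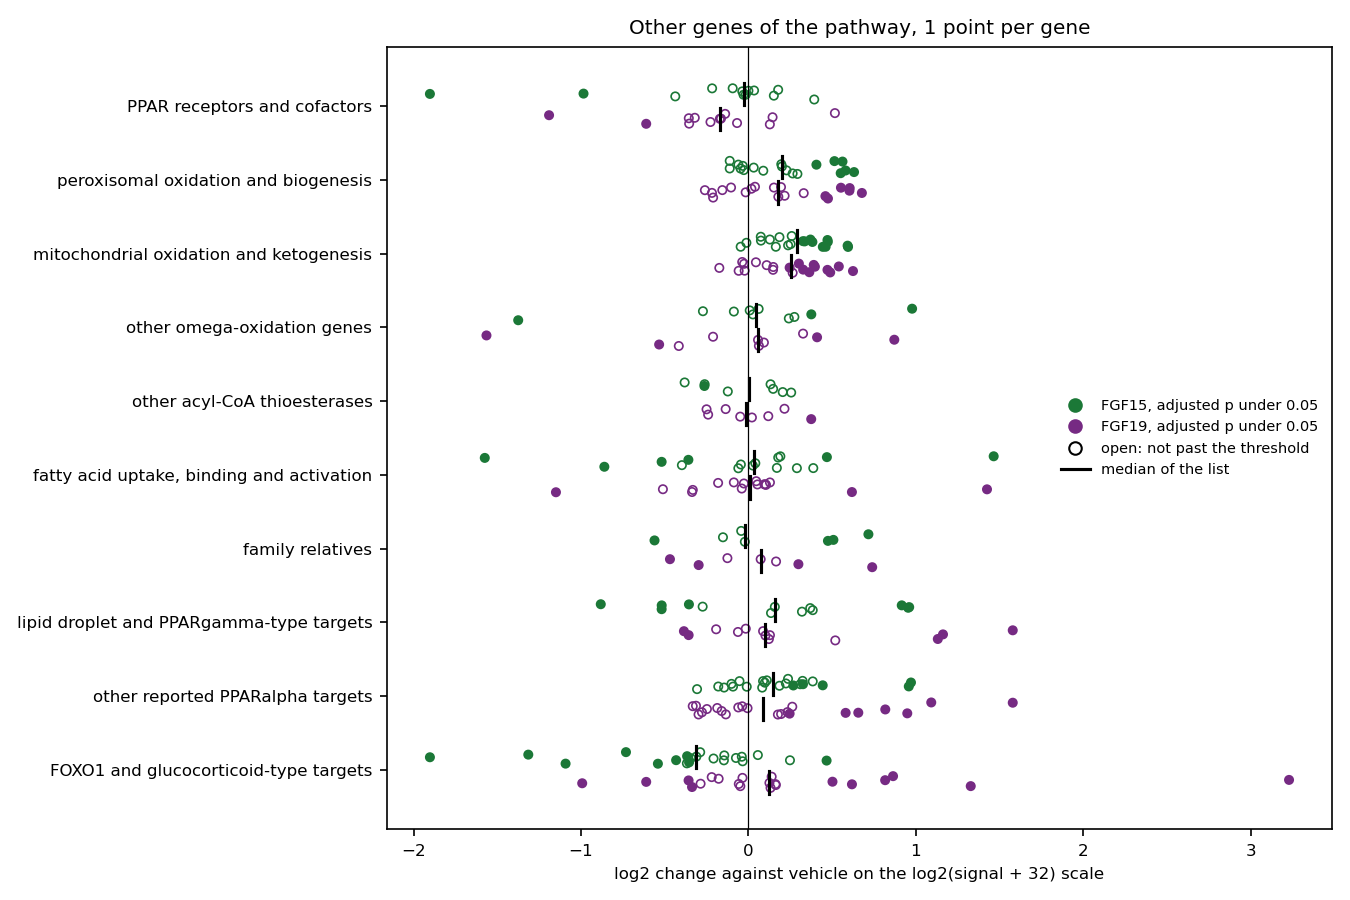
Log2 change against vehicle (horizontal axis) of every tested gene of the 10 pathway lists other than members (vertical axis), green for FGF15 and purple for FGF19; filled points passed the test and black bars are list medians. The peroxisomal and mitochondrial lists sit mostly to the right of 0, and the FOXO1 and glucocorticoid-type list has a median of -0.31 with FGF15 and 0.13 with FGF19. The FGF19 median of that last list was -0.01 without FGF19 replicate 2 and 0.03 without vehicle replicate 1.

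Pdk4 and Angptl4 are known to respond to FOXO1 and glucocorticoids as well. Of 21 other FOXO1 and glucocorticoid-type targets tested, 1 rose and 8 fell with FGF15, 6 rose and 4 fell with FGF19, and 9 were higher and 0 lower with FGF19 than with FGF15. The last count was 8 to 10 without any 1 array and 9 to 11 under the other scalings, and 1 gene was lower without FGF19 replicate 2. Igfbp1, which binds insulin-like growth factors, read 740.1 and 753 with vehicle, 709 and 742 with FGF15 and 6925 and 7630.2 with FGF19. Only the FGF19 arrays were high, and the log2 change was 3.23 ± 0.07 (adjusted p = 5.3e-09). Next in the list by smallest p against vehicle were G6pc and Ppargc1a, which were lower with both hormones. Ppargc1a changed by -1.90 with FGF15 and -0.61 with FGF19. With 1 array of the compared groups left out, G6pc changed by -1.39 to -1.24 with FGF15 and by -1.06 to -0.93 with FGF19. The falls with FGF15 numbered 4 when vehicle replicate 2 or FGF15 replicate 1 was left out, and 5 when vehicle replicate 1 was. The falls with FGF19 were 1 without either vehicle array and 2 without FGF19 replicate 1.

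The genes outside the member list whose profiles lay closest to 3 members were found by the root mean square difference of log2 values over the 6 arrays, each set to 0 at the vehicle mean. For Cyp4a14 the closest of 9677 genes were Creld2 (difference 0.251), an endoplasmic reticulum chaperone, Gsta2 (0.265), a glutathione transferase, and Rgs16 (0.291), which damps G protein signals. For Vnn1 they were Sdf2l1 (0.133), Creld2 (0.200) and Fabp2 (0.203), and for Cd36 they were Fabp2 (0.108), the methyltransferase Inmt (0.115) and Sdf2l1 (0.128). Of these, Fabp2 stands in the list of fatty acid uptake, binding and activation.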

How the data were processed

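The deposited table gives a linear signal intensity for each probe set on each array. From the values, the authors had scaled every array's deposited intensity to a trimmed mean of about 200.1 (2% trimmed at each end). Which software they used is not given in the sources used here; their scaling was kept as deposited. Probe sets were named through the platform annotation (20380 with 1 gene symbol, 20351 of them updated by Entrez identifier). Signals were converted to log2(signal + 32), control probe sets were left out, and the lowest 25% by mean log2 value were removed, which left 16969.

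limma 3.58.1 in R 4.3.3 (lmFit, eBayes with intensity trend) was fitted to all 6 arrays with group as the only term, two-sided, with Benjamini-Hochberg adjustment over all probe sets tested. The fit was per probe set because the members are probe sets. It had 3 residual and 6.70 prior degrees of freedom, and the median SE was 0.14. The number of arrays limits precision. Every adjusted p is from limma, and fold changes are on the log2(signal + 32) scale, which understates those of dim probe sets. All members were named, with up to 3 genes per list by smallest p against vehicle and the 3 closest profiles for Cyp4a14, Vnn1 and Cd36; lists count each gene by its brightest probe set. Members and lists were chosen with earlier results of these data known. The fit was tested on simulated data. Alternatives were other pseudocounts (16, 64), quantile normalization, median centring, cyclic loess, no or a stricter filter (50th percentile), 1 probe set per gene, no intensity trend, the replicate number as a block, a fit of just the 2 groups compared, and each array left out. Python 3.11.15 and matplotlib 3.10.9 made the figures.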

Additional observations from a re-analysis of the deposited data

Results flagged for a closer look

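The effects of the hormones against vehicle differed, by the direct test of FGF19 minus FGF15, for 3 members. The log2 difference was -1.08 for Acot3, on an _s_at probe set that can bind related thioesterase transcripts, -0.41 for Vnn1 and 0.50 for Angptl4, also on an _s_at probe set. The difference for Acot3 kept its call without any 1 array, and those of Vnn1 and Angptl4 did not.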

How the results depend on the processing

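With 2 arrays a group, 6 member genes rose with FGF15 under every alternative run; 7 rose with FGF19, 6 with no filter or no intensity trend, and 5 to 7 without 1 array. Without the intensity trend, calls over all probe sets numbered 863 with FGF15, 911 with FGF19 and 194 between the hormones, against 1789, 1949 and 562. Leaving out 1 array gave 744 to 1808, 755 to 1956 and 317 to 484. The 1 member gene that fell with FGF15 was 0 with median centring, no filter, no intensity trend or the replicate block, and 0 to 1 without 1 array. Between the hormones, 1 member gene was higher, 2 with median centring or the stricter filter, 0 with no filter or no intensity trend and 0 to 1 without 1 array; 2 were lower, 1 with no filter, 0 with no intensity trend and 1 to 2 without 1 array. Apart from the arrays left out, the cause of these shifts was not tested. Leaving out 1 array turned the sign of uncalled values: Pdk4 with FGF15 ranged from -0.14 to 0.15, and the difference between the hormones from -0.17 to 0.10 for Cd36 1423166_at, -0.051 to 0.058 for 1450883_a_at and -0.14 to 0.24 for 1450884_at. Deviations of same-numbered arrays were close to uncorrelated (r = 0.0824, -0.0309 and 0.0645 over probe sets). With 2 arrays a group this cannot exclude that the numbers pair the arrays. With the replicate block, calls numbered 1817, 2042 and 580, and among members it ended only the FGF15 call of Angptl4 (adjusted p = 0.0507).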

Other observations

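Besides the 13 probe sets, 2 are each paired with 2 genes together and so name neither. Probe set 1424853_s_at is paired with a member and a gene outside the members, and 1422997_s_at with 2 members. Probe set 1424853_s_at read 2164 and 2289 with vehicle, 4627 and 4733 with FGF15, and 3464 and 3679.6 with FGF19, which puts the mean signals at 2.10 and 1.60 times vehicle. Probe set 1422997_s_at read 123 and 152 with vehicle, 288 and 317 with FGF15, and 204 and 243 with FGF19, at 2.20 and 1.63 times vehicle. On both, every FGF15 array was above every FGF19 array, and these were above vehicle.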
